A study of Mus musculus with 8 samples.

Results

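The genes of MHC class II presentation and their transactivator, Ciita, were followed in mouse spleen dendritic cells cultured with or without interferon gamma (IFN-γ). The 10 genes are H2-Aa, H2-Ab1, H2-Eb1, Cd74, H2-DMa, H2-DMb1, H2-DMb2, H2-Oa, H2-Ob and Ciita. Their probe sets were taken by gene symbol in the platform annotation, with no threshold on measured values. Earlier results of these data were known when the genes were chosen. They were read by 11 probe sets of a single symbol out of 12422 tested on the array, which cover 8251 named genes. Another probe set is annotated to both H2-DMb1 and H2-DMb2 and is given for neither. H2-DMa has a brighter and a dimmer probe set, and the brighter one stands for the gene unless the dimmer is named.

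The cells were CD8+ dendritic cells purified from spleens of female DBA/2J mice aged 60 days. All mice, those behind the medium cultures included, had received 10 µg of Flt3-L, a growth factor that expands dendritic cells, over 9 days. Cells were kept with 200 U/ml of mouse IFN-γ for 4 hours, in medium alone for 4 hours, with IFN-γ for 16 hours, or in medium alone for 16 hours, and each of these 4 groups has 2 arrays of the Affymetrix MG-U74Av2 type. Whether replicate arrays stem from separate mice or separate cultures is not stated in the labels. The p-values therefore measure the spread between arrays, which may be technical, and their precision is limited by having 2 arrays a group. The labels give no purity of the sorted cells.

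Of 10 measured markers of CD8+ dendritic cells, 8 lay above the median of the antisense control probe sets, taken as the level of unspecific binding, on all 8 arrays, Itgax, Cd8a, Ly75 and Flt3 among them. Xcr1 and Zbtb46 did not. Of 11 measured B cell markers, 9 also lay above these controls on all 8 arrays, Cd79a, Cd79b and Ighm among them, and B cells make class II molecules too. Above them on all 8 arrays were also 6 of 6 T cell, 4 of 4 plasmacytoid dendritic cell and 5 of 6 neutrophil markers. The same was seen for 6 of 12 macrophage and 1 of 3 red blood cell markers. Lying above these controls thus does not tell the cell types apart here. Medians of the tested probe sets ran from 51.3 to 53.7 in linear intensity over the arrays, and those of the antisense controls from 44.9 to 61.2. All 10 genes lay above the antisense median of each array. Actb had a 3′ to 5′ ratio, which reflects how intact the labelled RNA was, of 2.04 and 2.20 in medium at 4 hours and of 1.47 to 1.68 on the other 6 arrays. In RNA from a cell population, a lower share of cells of one type and less RNA per cell cannot be told apart.

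MHC class II molecules are pairs of an alpha and a beta chain that show peptides from endocytosed protein to CD4+ T cells. In the endoplasmic reticulum they bind the invariant chain, encoded by Cd74, whose remnant CLIP is later exchanged for peptide with the help of the DM molecule, and DO, a relative of DM known best from B cells, inhibits DM. Ciita is the master regulator of these genes. It does not bind DNA by itself but joins the factors RFX, CREB and NF-Y on a module of S, X and Y boxes just before the start of each gene. In many cells that lack class II, IFN-γ turns Ciita on with the help of Irf1, whereas dendritic cells express Ciita without it, from a promoter of their own, and are known to silence that promoter as they mature.

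The promoters are shown because this shared module is what ties the genes to Ciita. RefSeq promoter windows of build GRCm38.p6, which come from C57BL/6J and not from DBA/2J, were used for 7 of the 10 genes. H2-Ab1, Cd74 and Ciita were not searched. Windows of the 10 genes on a single chromosome were left out by rule, so a gene not searched may still have a window. The same rule was not applied to the windows of all genes. The windows run from 250 bases before to 50 bases after a start site, and H2-DMa has a window at each of 2 start sites. They were searched on both strands for TGATTGG, letters of the Y box that NF-Y binds, and for AGCAAC and GATGATGC, letters from the earlier and the later part of the X box. No match of one overlapped a match of another. Stretches of 75 bases are aligned here on the Y box letters, 5′ to 3′ along the strand of the gene, with matches in capitals.
H2-Aa, chr17:34287849-34287923, minus strand: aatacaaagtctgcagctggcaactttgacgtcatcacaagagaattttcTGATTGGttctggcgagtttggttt
H2-Eb1, chr17:34305756-34305830, plus strand: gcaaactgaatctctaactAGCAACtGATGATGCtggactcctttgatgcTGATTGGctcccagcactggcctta
H2-DMb1, chr17:34153078-34153152, plus strand: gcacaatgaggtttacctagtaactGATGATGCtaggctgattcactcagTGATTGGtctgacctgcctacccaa
H2-DMb2, chr17:34145107-34145181, plus strand: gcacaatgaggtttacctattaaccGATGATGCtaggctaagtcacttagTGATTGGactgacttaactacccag
H2-Oa, chr17:34092284-34092358, plus strand: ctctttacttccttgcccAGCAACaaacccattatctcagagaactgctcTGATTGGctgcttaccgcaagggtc
H2-Ob, chr17:34238796-34238870, plus strand: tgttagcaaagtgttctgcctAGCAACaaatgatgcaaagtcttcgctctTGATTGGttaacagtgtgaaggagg

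TGATTGG began 50 bases before the start site in H2-Aa, 61 in H2-Eb1, 63 in H2-DMb1, 92 in H2-DMb2, 45 in H2-Oa and 59 in H2-Ob. X box letters lay before it on the same strand in 5 of these genes. From the start of the X letters to the start of TGATTGG the distance was 31 bases for AGCAAC and 24 for GATGATGC in H2-Eb1, 25 in both H2-DMb1 and H2-DMb2, 32 in H2-Oa and 29 in H2-Ob. Of all 32851 promoter windows of this length in the RefSeq table, 7.82% hold TGATTGG, 14.8% hold AGCAAC and 0.703% hold GATGATGC on either strand. X letters at 20 to 45 bases before TGATTGG on 1 strand were found in 31 of these windows, or 0.0944%. The 2 windows of H2-DMa held none of these letters, and that of H2-Aa held only TGATTGG. A match of letters is a description of these windows and not a measured binding site. The letters searched are those of the class II boxes themselves, so the shares over all windows stand beside the matches and test nothing.

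**Figure D1:**
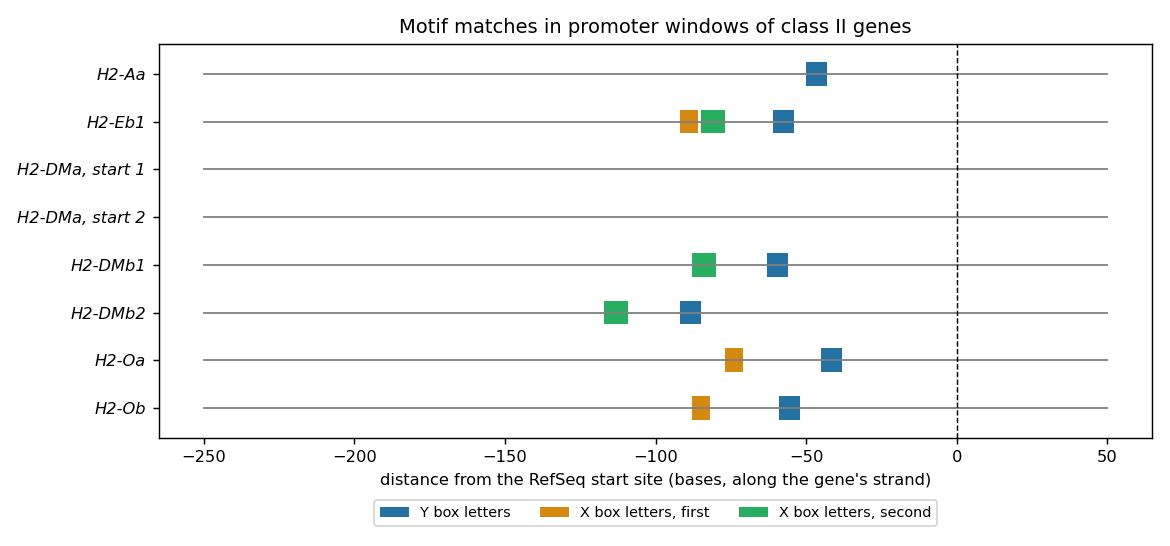
Positions of the motif matches in the 8 promoter windows of 7 class II genes, drawn to scale in bases from the RefSeq start site (dashed line), with upstream to the left. Y box letters (TGATTGG, blue) lie 45 to 92 bases before the start site in 6 genes, and X box letters (AGCAAC, orange, and GATGATGC, green) lie 24 to 32 bases before them in 5.

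IFN-γ left no class II gene or Ciita called higher or lower at either time. By limma with Benjamini-Hochberg adjustment over all probe sets, 0 of the 10 genes passed at 4 hours, against 0.258% of all probe sets, and 0 of 10 passed at 16 hours, again against 0.258%. At an unadjusted p under 0.05 there were 0 of 10 at 4 hours and 1 at 16 hours, H2-DMa, beside 4.02% and 3.43% of all probe sets. Taking the replicate number as a block also gave 0 at both times, against 1.26% of all probe sets at 4 hours and 0.845% at 16 hours. The cells did respond to IFN-γ. Irf1, the transcription factor that IFN-γ uses to turn on Ciita, rose by 0.84 at 4 hours (adjusted p = 0.0123) and by 0.96 at 16 hours (adjusted p = 0.0075) on the log2 scale. Socs1, an inhibitor of cytokine receptor signalling, rose by 1.39 (adjusted p = 0.0141) and by 1.51 (adjusted p = 0.0137) at these times.

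The median log2 difference of the 10 genes was -0.06 at 4 hours and 0.09 at 16 hours, beside -0.01 and -0.00 over all probe sets. At 4 hours 4 genes lay above 0 and 6 below, and at 16 hours 7 lay above and 3 below. Arrays with IFN-γ lay all above those in medium for 3 genes at 4 hours and for 5 at 16 hours, where 15.4% and 9.1% of all probe sets did so. They lay all below for 3 genes at 4 hours and 1 at 16 hours, where 17.9% and 9.85% of all probe sets did.

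**Figure D2:**
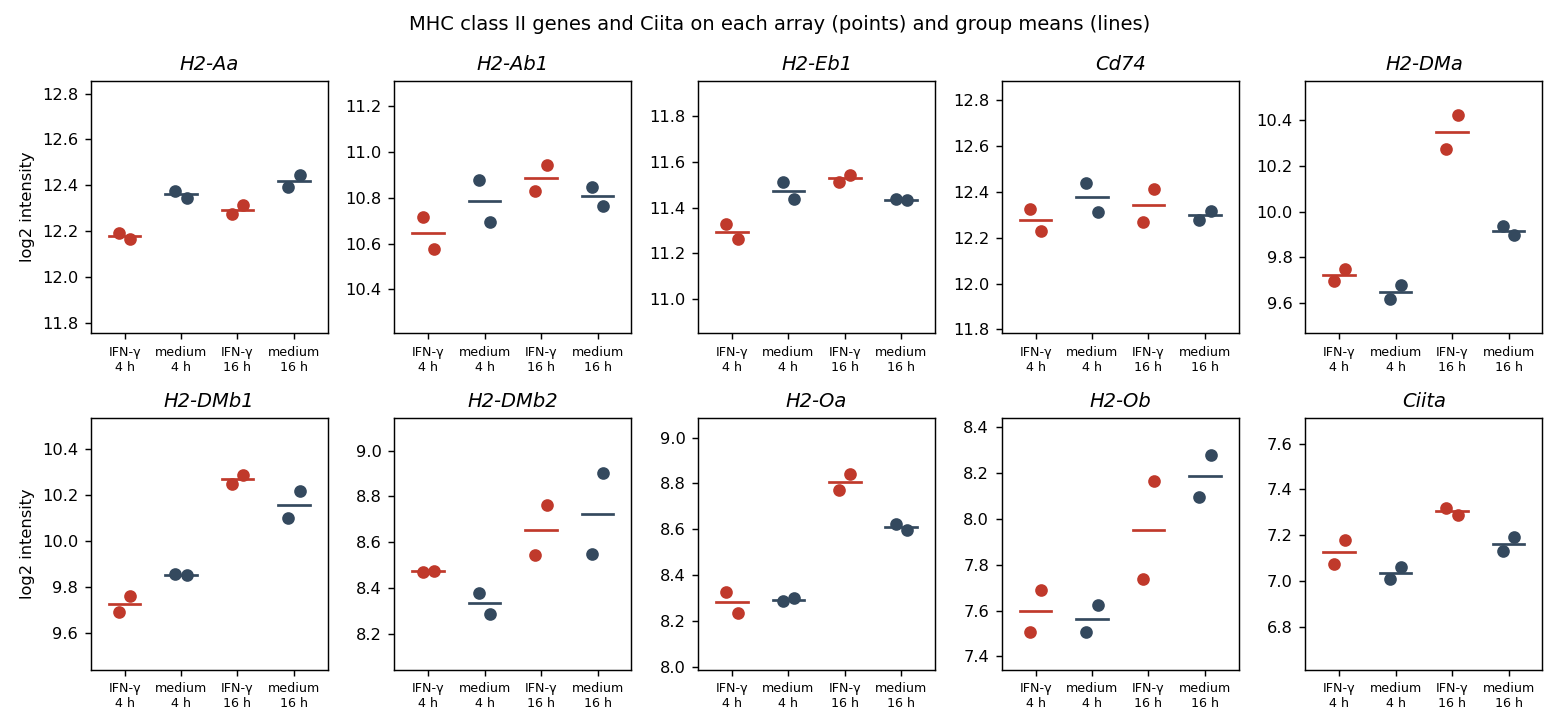
Log2 intensity of each gene on each array, by its brighter probe set where it has 2, with points for the 2 arrays of a group and lines for group means. Red marks IFN-γ and blue marks medium, and every panel spans the same number of log2 units. H2-DMa with IFN-γ at 16 hours, at 10.27 and 10.42, stands above the 6 other arrays, and Cd74 stays between 12.23 and 12.44.

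Ciita, read by probe set 102917_at, had log2 intensities of 7.08 and 7.18 with IFN-γ at 4 hours, against 7.01 and 7.06 in medium. At 16 hours it read 7.32 and 7.29 with IFN-γ and 7.13 and 7.19 in medium. At both times the arrays with IFN-γ lay just above those in medium, without passing the test. The log2 difference was 0.09 at 4 hours (SE 0.10, 95% interval -0.14 to 0.33, adjusted p = 1) and 0.14 at 16 hours (SE 0.10, interval -0.09 to 0.38, adjusted p = 1). In linear intensity the upper ends of these intervals are rises of 25.6% and 29.9%. Mouse Ciita has several promoters with different first exons, and the files do not say which transcripts this probe set reads.

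Cd74, the invariant chain (101054_at), read 12.33 and 12.23 with IFN-γ and 12.44 and 12.31 in medium at 4 hours. Cd74 at 16 hours read 12.27 and 12.41 with IFN-γ and 12.28 and 12.31 in medium. The groups overlap at both times, and the 8 arrays span 0.21 log2 units, the narrowest range of the 10 genes. Its log2 difference was -0.10 at 4 hours (SE 0.11, interval -0.35 to 0.15) and 0.04 at 16 hours (interval -0.21 to 0.30).

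The classical chains make up the molecules that carry peptide to the cell surface. H2-Aa, the alpha chain of I-A (92866_at), read 12.19 and 12.17 with IFN-γ and 12.37 and 12.35 in medium at 4 hours. H2-Aa at 16 hours read 12.27 and 12.31 with IFN-γ and 12.39 and 12.44 in medium. Both arrays with IFN-γ lay below both in medium at each time. The log2 difference was -0.18 at 4 hours (SE 0.10, interval -0.41 to 0.05, adjusted p = 1, or 0.738 with the replicate block) and -0.13 at 16 hours (SE 0.10, interval -0.35 to 0.10, adjusted p = 1). H2-Ab1, its beta chain (100998_at), read 10.72 and 10.58 with IFN-γ and 10.88 and 10.69 in medium at 4 hours. At 16 hours H2-Ab1 read 10.83 and 10.94 with IFN-γ and 10.85 and 10.77 in medium. These groups overlap at both times, with differences of -0.14 (interval -0.41 to 0.13) and 0.08 (interval -0.19 to 0.35).

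H2-Eb1, the beta chain of I-E (94285_at), read 11.33 and 11.26 with IFN-γ and 11.51 and 11.44 in medium at 4 hours. Its levels at 16 hours were 11.51 and 11.54 with IFN-γ and 11.44 and 11.43 in medium. Arrays with IFN-γ lay below medium at 4 hours and above it at 16 hours, and neither difference passed. They were -0.18 (SE 0.10, interval -0.41 to 0.05) and 0.09 (interval -0.14 to 0.32), with an adjusted p of 1 for each. H2-Ea, the partner of H2-Eb1 in I-E and not among the 10 genes, differed by -0.09 and -0.25 (adjusted p = 1 for both). H2-Eb2, a class II beta gene, read 3.27 to 3.64 on the 8 arrays, below the antisense controls, so no change can be read from it.

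H2-DMa, the alpha chain of DM (93092_at), had the largest difference with IFN-γ of the 10 genes, at 16 hours. At 4 hours it read 9.70 and 9.75 with IFN-γ and 9.62 and 9.68 in medium, a log2 difference of 0.07 (SE 0.11, interval -0.17 to 0.32, adjusted p = 1). At 16 hours it read 10.27 and 10.42 with IFN-γ and 9.94 and 9.90 in medium. Both IFN-γ arrays at 16 hours lay above every other array. The difference of 0.43 (SE 0.11, interval 0.19 to 0.68) had an unadjusted p of 0.00298 and did not pass over all probe sets (adjusted p = 0.377, or 0.0791 with the replicate block). In linear intensity this is 34.9% more with IFN-γ (interval 13.9% to 59.7%). The dimmer probe set of H2-DMa (162346_f_at) read 8.19 and 8.28 with IFN-γ and 7.87 and 7.96 in medium at 16 hours, a difference of 0.32 (adjusted p = 1, or 0.232 with the block). It is of a kind that can read related transcripts, so it may not be a second reading of H2-DMa alone.

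H2-DMb1 and H2-DMb2 encode near-identical beta chains of DM. The probe set of H2-DMb1 is of a kind that can read related transcripts. For both genes it is uncertain which of them the values read. H2-DMb1 (98035_g_at) read 9.69 and 9.76 with IFN-γ and 9.86 and 9.85 in medium at 4 hours, and its groups did not overlap. At 16 hours it read 10.25 and 10.29 with IFN-γ and 10.10 and 10.22 in medium, so the order of the groups was the other way round. The differences were -0.13 (interval -0.37 to 0.11) and 0.11 (interval -0.13 to 0.35). H2-DMb2 (101868_i_at) read 8.47 and 8.48 with IFN-γ and 8.38 and 8.29 in medium at 4 hours, and 8.55 and 8.76 with IFN-γ and 8.55 and 8.90 in medium at 16 hours. Its differences were 0.14 (interval -0.18 to 0.46) and -0.07 (interval -0.39 to 0.25). None of these passed (adjusted p = 1 in each case), nor did the probe set annotated to both genes (98034_at), which differed by -0.18 and 0.18.

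H2-Oa, the alpha chain of DO (102274_at), read 8.33 and 8.23 with IFN-γ and 8.28 and 8.30 in medium at 4 hours. At 16 hours it read 8.77 and 8.84 with IFN-γ, above 8.62 and 8.60 in medium. The difference was -0.01 at 4 hours (interval -0.25 to 0.22) and 0.20 at 16 hours (SE 0.10, interval -0.04 to 0.43, adjusted p = 1). H2-Ob, its beta chain (104429_at), read 7.51 and 7.69 with IFN-γ and 7.50 and 7.62 in medium at 4 hours. At 16 hours it read 7.74 and 8.16 with IFN-γ and 8.10 and 8.28 in medium, with groups that overlap. Its difference was 0.03 at 4 hours (interval -0.32 to 0.39) and -0.24 at 16 hours (SE 0.16, interval -0.59 to 0.11, adjusted p = 1). At 16 hours the estimates for the chains of DO thus have opposite signs, and both intervals include 0.

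**Figure D3:**
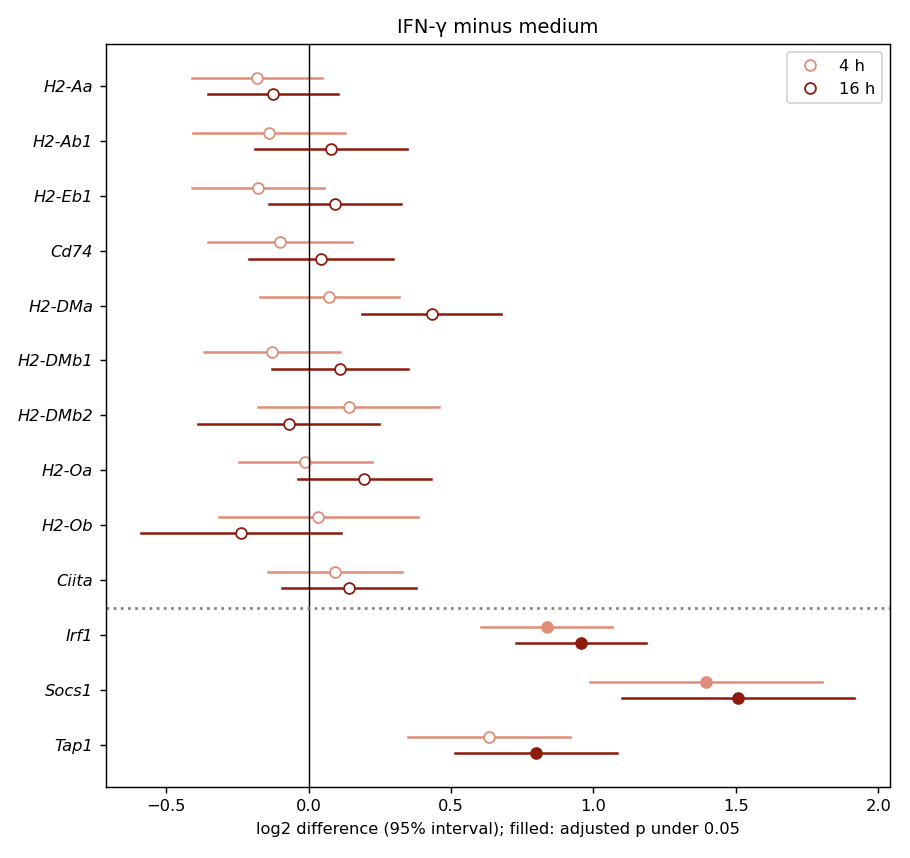
Log2 difference, IFN-γ minus medium, at 4 hours (pale) and 16 hours (dark), with 95% intervals, for the 10 genes and, under the dotted line, for Irf1, Socs1 and Tap1. Filled circles passed an adjusted p of 0.05. No class II gene or Ciita is filled, and H2-DMa at 16 hours (0.43) is the only one of the 10 genes whose interval excludes 0.

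The effect of IFN-γ was not shown to differ between 16 and 4 hours for any gene. This difference of effects passed for 0 of 10 genes and for 0.0% of all probe sets by limma, and for 0 of 10 genes and 0.242% of probe sets with the replicate block. H2-DMa had a difference of effects of 0.36 on the log2 scale (SE 0.15, interval 0.01 to 0.70, unadjusted p = 0.0428, adjusted p = 1, or 0.605 with the block), and it was the 1 gene of the 10 with an unadjusted p under 0.05, where 2.84% of all probe sets had one. With time and treatment as additive terms, 0 of 10 genes passed for IFN-γ, against 0.531% of all probe sets, and 2 had an unadjusted p under 0.05, against 4.39% of all probe sets. These were H2-DMa, with a difference of 0.25 (adjusted p = 0.736), and H2-Aa, with -0.15 (adjusted p = 1).

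The genes called higher with time in culture encode chains of DM and DO. With IFN-γ, 3 of the 10 genes were higher at 16 than at 4 hours and 0 were lower, against 0.821% of all probe sets higher and 1.3% lower. They were H2-DMa, H2-DMb1 and H2-Oa. H2-DMa rose by 0.63 (SE 0.11, interval 0.38 to 0.87, adjusted p = 0.0222), which is 54.4% more in linear intensity, and its dimmer probe set rose by 0.51 (SE 0.11, adjusted p = 0.0487). H2-DMb1 rose by 0.54 (SE 0.11, interval 0.31 to 0.78, adjusted p = 0.0361) and H2-Oa by 0.53 (SE 0.10, interval 0.29 to 0.76, adjusted p = 0.0376). For each of these 3 genes both arrays at 16 hours lay above both at 4 hours. The 3 calls also stood with the replicate block, where 3.2% of all probe sets were higher. They were lost in a fit of only the 4 IFN-γ arrays, where adjusted p was 0.0929 for H2-DMa, 0.137 for H2-DMb1 and 0.15 for H2-Oa, and without any 1 of the 4 arrays at 4 hours. Without array 1 of IFN-γ at 16 hours only H2-DMa passed, and H2-Oa was also lost under median centring (adjusted p = 0.05) and without either medium array at 16 hours (adjusted p = 0.0579).

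Among the genes that did not pass with IFN-γ, H2-Ob differed by 0.35 (interval 0.0024 to 0.70, adjusted p = 0.361, or 0.0542 with the block) and H2-DMb2 by 0.18 (interval -0.14 to 0.50). H2-Ab1 differed by 0.24 (adjusted p = 0.433), H2-Eb1 by 0.23 (adjusted p = 0.362), Ciita by 0.18 (adjusted p = 0.516), H2-Aa by 0.11 and Cd74 by 0.06. All 10 estimates lay above 0. The arrays at 16 hours lay all above those at 4 hours for 9 genes and all below for 0, where 21.6% and 17.7% of all probe sets did so, and the exception was Cd74.

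In medium alone, 0 of 10 genes passed as higher at 16 hours by limma without a block, against 1.71% of all probe sets, and 0 passed as lower, against 2.57%. At an unadjusted p under 0.05 there were 5, beside 16.2% of all probe sets. With the replicate block 3 were higher, against 4.52% of all probe sets. H2-Ob differed by 0.62 (SE 0.16, interval 0.27 to 0.97, adjusted p = 0.0591, or 0.00311 with the block), its arrays reading 8.10 and 8.28 at 16 hours against 7.50 and 7.62 at 4 hours. H2-Oa differed by 0.32 (SE 0.10, adjusted p = 0.144, or 0.0455 with the block) and H2-DMb1 by 0.31 (SE 0.11, adjusted p = 0.166, or 0.0495 with the block). H2-DMb2 differed by 0.39 (SE 0.14, adjusted p = 0.184, or 0.0546 with the block) and H2-DMa by 0.27 (SE 0.11, adjusted p = 0.25, or 0.0891 with the block). For all 5 chains of DM and DO the arrays at 16 hours lay above those at 4 hours. Which of them were called depended on the setting, since quantile normalization called H2-DMa, H2-DMb1 and H2-Ob, and log2(value + 16) called H2-DMb1 and H2-Oa. H2-Aa, H2-Ab1, H2-Eb1 and Cd74 differed by 0.06, 0.02, -0.04 and -0.08, and Ciita by 0.13 (adjusted p = 0.6). In all, 7 genes had all arrays at 16 hours above those at 4 hours and 1 had all below, where 30.8% and 20.8% of all probe sets did so. Quantile normalization turned the sign of the small H2-Eb1 difference, and median centring that of H2-Ab1.

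**Figure D4:**
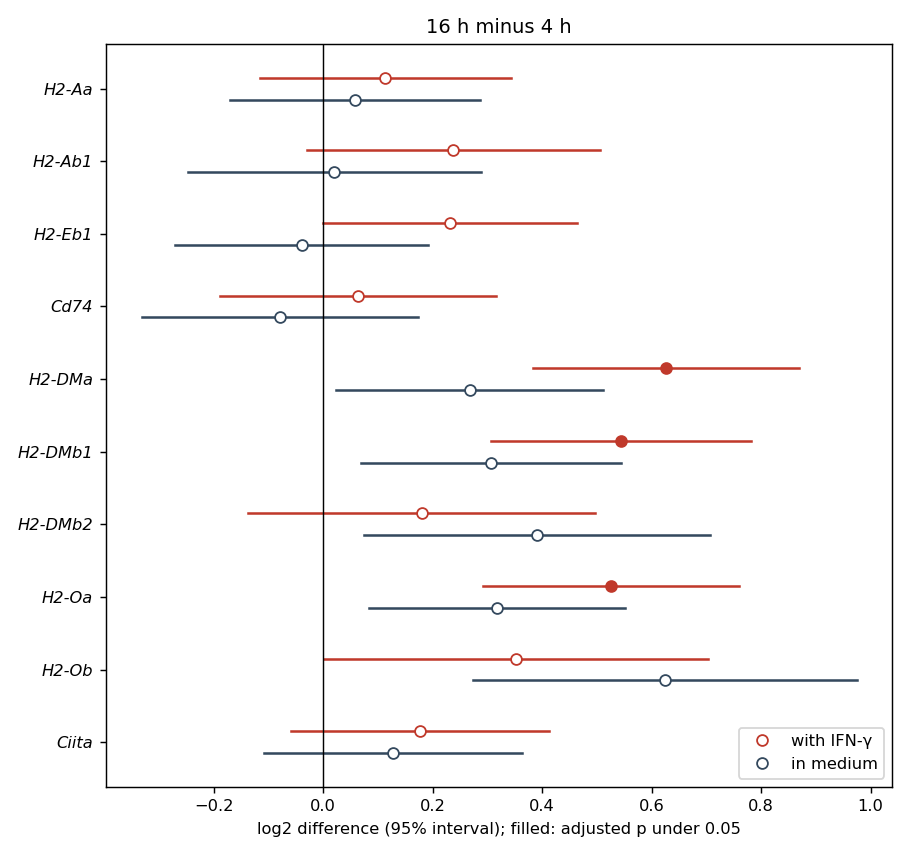
Log2 difference, 16 minus 4 hours, with IFN-γ (red) and in medium (blue), with 95% intervals. Filled circles passed an adjusted p of 0.05 without the replicate block, which are H2-DMa, H2-DMb1 and H2-Oa with IFN-γ, and the classical chains and Cd74 lie nearer to 0.

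As a group, the 5 chains of DM and DO had a median log2 difference of 0.53 between 16 and 4 hours with IFN-γ and of 0.32 in medium. The 3 classical chains and Cd74 had medians of 0.17 and -0.01, and all probe sets had 0.05 in both comparisons. No comparison of these groups with each other was tested. The comparison of times with IFN-γ shares its arrays with both comparisons of IFN-γ with medium, so the values stand side by side and are not independent of each other.

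Markers of B cells moved in the same comparisons of time. Of 11 measured, 3 rose between 4 and 16 hours with IFN-γ, Cd22 (0.89), Blnk (0.65) and Blk (0.62), and 9 did with the replicate block. In medium 1 rose, Blnk (0.48), and 4 did with the block. Their summed linear intensity was 8883 and 9322 with IFN-γ at 16 hours, against 7100 and 6822 with IFN-γ at 4 hours. In medium it was 8657 and 8731 at 16 hours, against 7896 and 7374 at 4 hours. Of these 11 markers, Cr2 and Ebf1 lay below the antisense controls on all arrays. The part of B cells in the time differences of the DM and DO genes was not tested.

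Macrophage markers moved too. Of 12 measured, 8 were higher and 1 lower at 16 than at 4 hours with IFN-γ, and 10 higher and 1 lower in medium, with C1qa, C1qb and C1qc, subunits of a complement component, among the higher and Spic, a transcription factor, the lower one. C1qa rose by 1.76 with IFN-γ and by 1.94 in medium. Their summed intensity was 3329 and 4125 with IFN-γ at 16 hours and 1340 and 1342 at 4 hours. For medium it was 4563 and 5372 at 16 hours and 1775 and 1813 at 4 hours. Of these 12 markers, 6 lay above the antisense controls on all 8 arrays. Adgre1 did so on 7 arrays, C1qb on 6, Spic on 3, Vcam1 on 2, and Mertk and Mrc1 on 0. The sum of the 10 CD8+ dendritic cell markers was 3637 and 4266 with IFN-γ at 16 hours, against 4789 and 5035 at 4 hours. In medium it was 3453 and 3660 at 16 hours, against 4346 and 4546 at 4 hours. Of these dendritic cell markers 1 was called lower at 16 hours with IFN-γ, Flt3, and 1 in medium, Irf8, and with the block 5 were lower in each comparison. The other foreign marker lists did not all move in the same direction. Summed intensity of 4 plasmacytoid dendritic cell markers was higher at 16 hours, at 2010 and 2199 with IFN-γ against 1775 and 1816 at 4 hours. In medium these markers summed to 2018 and 2103 at 16 hours, against 1898 and 1848 at 4 hours. Sums of 6 T cell markers overlapped between times, at 1456 and 1661 against 1518 and 1449 with IFN-γ, and 1430 and 1578 against 1652 and 1550 in medium. Summed intensity of 3 red blood cell markers was 258 and 215 with IFN-γ at 16 hours, against 396 and 377 at 4 hours. For medium it was 221 and 208 at 16 hours, against 425 and 420 at 4 hours. Hba-a1 and Hbb-b2 were called lower in both comparisons, but Hbb-b2 lay below the antisense controls on all arrays, so its change cannot be read. Summed intensity of 6 neutrophil markers was 3739 and 4481 with IFN-γ at 16 hours, against 4169 and 4407 at 4 hours. For medium it was 3927 and 4113 at 16 hours, against 4689 and 4789 at 4 hours, where Ngp was called lower. Of 6 T cell markers and 4 of plasmacytoid dendritic cells, 0 were called between times without the block, and with it Thy1 was lower in medium and Ly6d higher with IFN-γ. The part of these cells was likewise not tested.

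Against medium, IFN-γ gave no called B cell marker at either time. Macrophage markers had summed intensities of 1340 and 1342 with IFN-γ and 1775 and 1813 in medium at 4 hours, and of 3329 and 4125 with IFN-γ and 4563 and 5372 in medium at 16 hours. Of the 12, 0 were called at either time without the block. With the block 2 were lower at 4 hours (Csf1r and Lyz2) and 3 at 16 hours (Lyz2, Spic and Mrc1). In the additive model 3 were lower without the block and 5 with it. Mrc1 lay below the antisense controls on all arrays, so no change can be read from it, and Spic lay above them on only 3. Of the dendritic cell markers, Irf8 rose at 16 hours, and with the block Irf8 was also higher at 4 hours and Flt3 lower at 16 hours.

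The factors that bind class II promoters with Ciita did not pass in any comparison. Of 12 listed (the RFX, NF-Y and CREB subunits and coactivators), 8 were measured, and 0 were called at either time with IFN-γ or between times, with or without the block. Rfx5 and Rfxap, subunits of RFX, were not measured as genes of a single symbol. At an unadjusted p under 0.05 there were 0 of 8 for IFN-γ at both times and 1 of 8 for each comparison of times, where 13.7% of all probe sets with IFN-γ and 16.2% in medium had one.

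Among genes upstream of Ciita, 14 of 16 listed were measured, and 2 rose with IFN-γ at 4 hours, Irf1 and Socs1 (3 with the block). At 16 hours 3 rose, Irf1, Socs1 and Irf8, a transcription factor that CD8+ dendritic cells need for their development. Irf1 read 10.87 and 10.90 with IFN-γ and 10.02 and 10.08 in medium at 4 hours, and 10.60 in both IFN-γ arrays and 9.64 in both medium arrays at 16 hours. Irf8 rose by 0.82 at 16 hours (adjusted p = 0.0158), and its 4-hour difference of 0.61 passed with the block alone (adjusted p = 0.00892, against 0.0612 without it). In medium Irf8 fell by 0.47 between 4 and 16 hours (adjusted p = 0.0385), the 1 called gene of the list in that comparison, where the block called 3 lower and 1 higher. With IFN-γ 0 were called between times, and with the block Pax5 was higher and Irf4 lower. The list thus held genes that rose with IFN-γ while Ciita itself did not pass.

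Genes of class II antigen processing moved with time in both directions. The list holds 24 symbols, some of them older and newer names of the same gene, and 19 were measured. Of these 19, 3 rose and 2 fell at 16 hours against 4 hours, both with IFN-γ and in medium. With the block 4 were higher and 5 lower with IFN-γ, and 4 higher and 4 lower in medium, where 6.94% and 8.09% of all probe sets were lower. The 3 were the lysosomal proteases Ctsd, which rose by 1.01 with IFN-γ (adjusted p = 0.00354) and 1.05 in medium (adjusted p = 0.00196), Ctsb, by 0.75 and 0.77, and Ctsl, by 0.90 (adjusted p = 0.0446) and 1.45 (adjusted p = 0.00388). Those that fell were Cd63, a tetraspanin of late endosomes, with log2 differences of -1.36 with IFN-γ and -0.85 in medium, and Cd83, which keeps class II at the surface by opposing its ubiquitination, with -0.92 and -0.93. Ctss, the protease that cuts the invariant chain in dendritic cells, differed by 0.46 with IFN-γ (adjusted p = 0.28, or 0.0284 with the block) and by 0.60 in medium, where the block took its adjusted p to 0.00699 from 0.116. Lysosomal proteases are also abundant in macrophages, whose marker sums are given above.

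Against medium, IFN-γ moved 0 of these 19 genes at either time by limma without the block (3 at 4 hours and 4 at 16 hours at an unadjusted p under 0.05). With the block, 2 were lower at 16 hours, Ctsl (-1.12, adjusted p = 0.0592, or 0.00486 with the block) and Cd63 (-0.55, adjusted p = 0.974, or 0.0382 with the block). Ctsl read 6.88 and 7.09 with IFN-γ and 7.79 and 8.42 in medium at 16 hours. In the additive model Ctsl was the 1 gene called lower with IFN-γ (-0.85, adjusted p = 0.0356), and 2 were lower with the block. Some macrophage markers were lower in these same fits, as given above, and their part was not tested.

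Genes of MHC class I presentation give a comparison within the same arrays, since IFN-γ is known to induce this pathway too. The list holds transporter and proteasome genes beside the class I chains. Of 16 listed, 12 were measured, and 9 lay above 0 and 3 below with IFN-γ at each time. The chain genes H2-K1, H2-D1 and B2m differed by -0.02, 0.03 and 0.00 at 4 hours. At 16 hours these 3 differed by -0.02, -0.01 and -0.07, and none of them was called. At 16 hours 1 rose with IFN-γ, Tap1, a subunit of the peptide transporter (0.80, SE 0.13, adjusted p = 0.0499), and 3 did with the block. Tap1 read 10.40 and 10.65 with IFN-γ and 9.74 and 9.72 in medium. At 4 hours 0 passed, 4 had an unadjusted p under 0.05, and 1 passed with the block, again Tap1 (0.63, adjusted p = 0.132, or 0.0266 with the block). The median log2 difference of the 12 class I genes was 0.12 at 4 hours and 0.37 at 16 hours, beside -0.06 and 0.09 for the class II genes and Ciita. Between times 0 class I genes were called, and 2 were lower in medium with the block. In the additive model 1 rose with IFN-γ, and 4 did with the block. The medians describe the lists, and no test compares them.

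**Figure D5:**
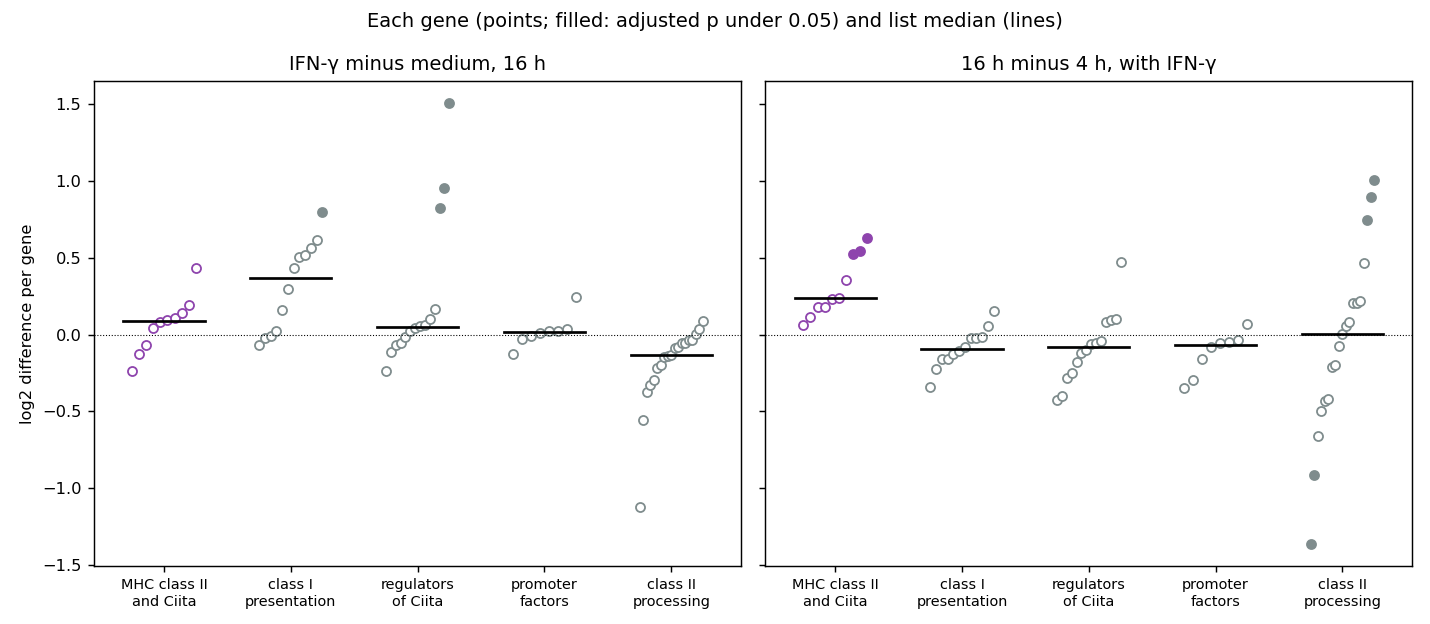
Log2 difference of each measured gene (points, filled where the adjusted p was under 0.05) and list median (lines) for IFN-γ minus medium at 16 hours (left) and 16 minus 4 hours with IFN-γ (right). On the left the class I median is 0.37 and that of the class II genes and Ciita 0.09. On the right the 3 filled points of the class II genes are H2-DMa, H2-DMb1 and H2-Oa.

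The genes with the pattern most like that of Ciita over the 8 arrays, by Pearson correlation of log2 values among 4482 genes above the antisense controls, were Znhit1 (0.961), Cybc1 (0.955), Traf3ip2 (0.925), Agpat5 (0.924) and Rnf167 (0.914). For H2-Ab1 they were Tom1 (0.960), Krtcap2 (0.959), Pstpip1 (0.959), Ergic3 (0.947) and Eif4ebp2 (0.941). For Cd74 they were 1110008P14Rik (0.925), Ptprcap (0.917), Cic (0.910), Sidt2 (0.897) and Phf23 (0.895). No other class II gene is among these 15. Each correlation rests on 8 arrays that share groups and replicate numbers, and Ciita and Cd74 span only 0.31 and 0.21 log2 units, so the values describe these arrays and carry no p.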

How the data were processed

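RNA of 4 groups of cells was measured on 8 arrays, 2 per group, with groups and replicate numbers taken from the sample titles. The authors deposited intensity summaries per probe set on a linear scale, from 2.65 to 12523, and per the submitters' processing notes RMA was used. Its settings are not given in the sources used here. Here log2 was taken with no pseudocount and no further normalization. The 66 array controls among 12488 probe sets were not tested, and 15 antisense ones served to gauge unspecific binding. In the platform annotation 10833 probe sets have 1 symbol, 396 have several and 1193 have none. The brightest probe set of a gene, by its mean over the arrays, stands for it.

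Differences were tested with limma 3.58.1 in R 4.3.3 (two-sided), in a fit of 4 group means over all 8 arrays, with Benjamini-Hochberg adjustment over 12422 probe sets and a threshold of 0.05. Intervals are 95%. The script was tested on simulated data with known changes. Between groups, the differences of array 1 and array 2 correlated at 0.367 to 0.740 in all 6 pairs of groups. The replicate number was therefore also run as a block, although no label states that it pairs the arrays. The main fit, its intervals and its calls do not use the block. Blocked values are printed where the block alters a call among the 10 genes. For the lists, counts with the block are given for most comparisons where it changes them, without naming every gene concerned. All 10 genes, and up to 4 called genes per pathway list with the smallest p, are named, with Irf1, Socs1, Rfx5, Ctss, H2-Eb2 and Tap1 named in any case. Marker genes, genes called only with the block and the fifth called gene of the processing list were chosen after their values were seen. A further gene of this rule is not reported here. The genes and lists were chosen with earlier results of these data known. Other settings tried were the block, other scalings (quantile, median centring), a pseudocount of 16, a filter on the dimmest 40% of probe sets, a trended robust prior, other thresholds, other probe sets per gene, a fit of only the arrays compared, and each array left out.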

Additional observations from a re-analysis of the deposited data

How the results depend on the processing

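The count of class II genes or Ciita passing for IFN-γ at 4 hours, at 16 hours, in the difference of these effects and in the additive model was 0 under every alternative run, the replicate block included, and so were the counts of genes lower at 16 than at 4 hours. The counts higher at 16 hours were not stable. In medium the count of 0 became 3 with the replicate block, 3 with quantile normalization, 2 with log2(value + 16), and 1 without the dimmest 40% of probe sets, in a fit of only the arrays compared and at an adjusted p under 0.10. It ran from 0 to 1 with 1 array left out, and was 1 without either IFN-γ array at 16 hours. With IFN-γ the count of 3 became 0 in a fit of only the arrays compared and at an adjusted p under 0.01. It ran from 0 to 3 with 1 array left out. The replicate block changed no other call among the 10 genes. Of 1000 values for single genes, 945 kept their direction and side of the threshold, 20 lost a call, 12 gained one and 23 turned sign or reached 0.0. Those that turned were all uncalled. H2-Ab1 between times in medium was -0.0234 under median centring, and H2-Eb1 there was 0.0473 under quantile normalization. With 1 array left out, the IFN-γ difference at 4 hours ran from -0.0589 to 0.0348 for H2-Oa and -0.0574 to 0.127 for H2-Ob, and at 16 hours from -0.0295 to 0.117 for Cd74 and -0.246 to 0.106 for H2-DMb2. The difference of effects ran from -0.0028 to 0.1003 for Ciita, and the time difference from -0.0731 to 0.114 for H2-Ab1 in medium and -0.0097 to 0.137 for Cd74 with IFN-γ. In the additive model the ranges were -0.0744 to 0.0293 for H2-Ab1, -0.0712 to 0.0115 for Cd74, -0.0572 to 0.0287 for H2-DMb1, -0.0141 to 0.127 for H2-DMb2 and -0.165 to 0.0115 for H2-Ob. The causes were not tested. With an array left out, its partner was taken to vary as arrays of the other groups do. The fits rest on 2 arrays a group and take 1 spread for all groups although replicate arrays differed with an SD of 0.311 with IFN-γ at 16 hours and 0.176 with IFN-γ at 4 hours.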
